A study of Mus musculus with 6 samples.

Results

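The genes described here encode the proteins of the cytosolic ribosome, in the mouse myeloid clone C6, a line of haematopoietic progenitors, with and without doxycycline. The members were chosen by name alone, though with earlier results of these data known. A gene entered where a probe set, the group of array probes that reads a transcript, carried its symbol and no other, and where that symbol is Rpl or Rps with a number and at most a short suffix, or Rplp0, Rplp1, Rplp2 or Rpsa. S6 kinases do not match this pattern, and Rps4l, listed as a transcribed pseudogene in the RefSeq gene table, was left out. This gave 48 of 18193 genes on the array with a symbol of their own, 26 of the large subunit and 22 of the small subunit, read by 104 probe sets. A gene with several probe sets was read from the set that was brightest on average over the 6 arrays, whatever the group.

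All 6 samples came from the same clone of the Rosa26rtTA C57BL/6J background, which carries the vector pRRL.TET.Evi1.IRES.EGFP. In it doxycycline, acting through the rtTA protein, switches on Evi1, a transcription factor with zinc fingers, as a codon-optimized murine copy with EGFP on the same transcript. Both groups grew in medium with the cytokines interleukin 3 (20 ng/ml) and, each at 50 ng/ml, interleukin 11, Flt3 ligand and stem cell factor. The doxycycline group is 3 arrays from cells under 1 µg/ml of the drug, and the withdrawal group 3 arrays from cells 48 h after it was removed, so Evi1 and the drug itself were taken away together and their parts cannot be told apart. The series describes the clone as dependent on Evi1, and with 1 clone the spread between clones was not measured. The comparison asks which transcripts differ once the inducer is gone. Values are log2 levels of RMA (robust multi-array average), and every difference is withdrawal minus doxycycline on that scale, given ± the standard error that limma estimates from n = 3 arrays in either group.

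The cytosolic ribosome joins a small subunit, which reads the mRNA, to a large subunit, which forms the peptide bonds and carries a flexible stalk that recruits translation factors. Each ribosome holds a single copy of nearly every ribosomal protein, so their genes are expressed in proportion and their mRNAs are among the most abundant of a growing cell. These mRNAs begin with a terminal oligopyrimidine tract, an unbroken run of C and T (U in the RNA) that starts with C at the cap and through which mTORC1 signalling and the protein Larp1 govern their translation. In blood formation the family is known from Diamond-Blackfan anaemia, in which loss of a single copy of a ribosomal protein gene impairs the red cell lineage.

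To show where such a tract was found near annotated starts, windows of 30 bases, 10 before the start and 20 from it on, are printed for 8 members. The C-led pyrimidine run is in capitals, and coordinates are in build GRCm38.p6 from RefSeq. They were picked after the values were seen, to hold members whose 2 groups of arrays did not overlap (Rpl14, Rpl22l1, Rps6, Rpl35) and members whose groups overlapped (Rpl7a, Rps10, Rps18), with Rplp0 as a member without such a run that begins within 10 bases of the start. Capitals mark only a run that begins within that distance.
Rpl14, chr9:120571507-120571536, plus strand: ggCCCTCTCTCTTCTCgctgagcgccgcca
Rpl22l1, chr3:28805498-28805527, plus strand: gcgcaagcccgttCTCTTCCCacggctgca
Rps6, chr4:86857348-86857377, minus strand: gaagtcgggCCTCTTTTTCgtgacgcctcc
Rpl35, chr2:39005112-39005141, minus strand: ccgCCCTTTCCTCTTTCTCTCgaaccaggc
Rpl7a, chr2:26910797-26910826, plus strand: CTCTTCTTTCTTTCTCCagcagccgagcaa
Rps10, chr17:27635225-27635254, minus strand: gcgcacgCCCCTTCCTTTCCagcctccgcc
Rps18, chr17:33955646-33955675, minus strand: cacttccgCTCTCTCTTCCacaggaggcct
Rplp0, chr5:115559457-115559486, plus strand: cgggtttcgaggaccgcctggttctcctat
The promoter table of RefSeq held 43 of the 48 members, with 51 starts. A C followed by at least 4 bases that are each C or T, on the strand of the gene, lay exactly at the annotated start of 8 members (18.6%), against 2.67% of 17491 protein-coding genes in that table. Within 10 bases to either side it was found at 27 members (62.8%), against 34.9% of protein-coding genes. By response, 12 of 18 members with lower, separate groups and 15 of 25 others had it within 10 bases. Both kinds therefore include members with the run and members without it. An annotated start can lie some bases away from the start that the cells use, and a member counted as without a run lacks one only within 10 bases, since the window of Rplp0, for example, holds ctcct further in.

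The arrays were alike in their overall values, with correlations from 0.995 to 0.998 within and from 0.994 to 0.996 between groups, and none held values identical to those of another. Withdrawal replicate 3 and doxycycline replicate 1 stood apart from the other arrays on the second principal component, which held 31.9% of the variance. The labels do not say that replicates came from separate cultures, so a p-value here reflects no more than the spread among these arrays, and that spread may be technical. Of 7 progenitor genes Cd34 fell, from 7.91 under doxycycline to 7.41, while Kit (9.29 and 9.55) and Gata2 (10.45 and 10.66) were higher after withdrawal without overlap but did not pass. Ptprc (12.61 and 12.46), Myb (12.87 and 12.93) and Spn (10.91 and 10.91) were bright in both groups, and Flt3, at a mean of 5.75, was level with the brightest stromal gene. The mean levels of stromal genes lay between 3.41 and 5.75, of B-cell genes between 4.04 and 4.79 and of T-cell genes between 4.08 and 6.01, with no call in limma among these 11 genes (unadjusted p below 0.05 for 3). Markers of maturing cells moved with the groups. The summed log2 level of 5 primary granule genes was 69.0 to 69.2 after withdrawal and 67.1 to 67.3 under doxycycline (2 of 5 rose), that of 5 eosinophil genes 47.7 to 48.3 and 44.9 to 45.4 (4 of 5 rose), that of 5 megakaryocyte genes 34.5 to 35.2 and 37.9 to 38.7 (3 of 5 fell), and that of 7 macrophage genes 63.0 to 63.2 and 64.9 to 65.3 (3 of 7 fell). Of 7 mast cell and basophil genes 3 rose and 1 fell. The 7 late neutrophil genes were bright in both groups, with means from 11.40 (Mmp8) to 15.15 (S100a9). Their summed log2 level was 98.08 to 98.13 after withdrawal and 97.47 to 97.74 under doxycycline. Without overlap 4 were higher and 1 lower (57.1% and 14.3%), where 12.4% and 12.2% of all genes were. Camp rose in limma, and the 1 that was lower was Mmp8 (-0.30 ± 0.06, limma adjusted p = 0.0670). Of 4 erythroid genes none passed in limma, with 2 lower and 1 higher at an unadjusted p below 0.05. Over all genes 1.57% were lower and 1.2% higher in limma. The part of these marker genes in the ribosomal values was not tested. In such bulk samples fewer cells of a type and less RNA per cell cannot be told apart. Since RMA normalizes the arrays to each other, a difference is relative to the other transcripts and says nothing of the ribosome content of a cell. The deposited values still differed somewhat in spread, with interquartile ranges from 3.71 in withdrawal replicate 3 to 3.92 in withdrawal replicate 1.

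Ribosomal protein mRNAs were on balance slightly lower after withdrawal, but Rpl14 alone passed the threshold. The difference was negative for 38 of the 48 members and positive for 10, with a median of -0.05, or 3.63% lower, beside a median of 0.01 over all 18193 genes. In limma 1 member was lower and 0 were higher at an adjusted p below 0.05, where 1.57% of all genes were lower and 1.2% higher, so the count of calls is near the background. At an unadjusted p below 0.05, 6 members were lower and 1 higher (12.5% and 2.08%), where 8.26% of all genes were lower and 8.003% higher. In 20 members every withdrawal array lay below every doxycycline array (41.7%, where 12.2% of all genes did so), and in 2 every withdrawal array lay above (4.17%, where 12.4% of all genes did so). Among the 392 genes that are no members but were as bright, with a mean of 12 or more, 21.2% were separate and lower and 28.8% separate and higher. Of the 16 members read by unsuffixed probe sets 6 were separate and lower (37.5%) and 1 separate and higher (6.25%).

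Array by array, the members lay lower in every withdrawal sample, least in withdrawal replicate 3. The number of members below their own mean over the 6 arrays was 39, 40 and 27 in withdrawal replicates 1, 2 and 3. In doxycycline replicates 1, 2 and 3 it was 7, 18 and 13. The median deviation of the members from their own means was -0.03, -0.03 and -0.02 after withdrawal and 0.04, 0.02 and 0.03 under doxycycline. For the bright genes that are no members the same medians were 0.02, 0.01 and -0.002 after withdrawal and -0.01, -0.01 and -0.01 under doxycycline. The 2 groups of arrays thus did not overlap in the median of the members. Without withdrawal replicate 3 and doxycycline replicate 1, a choice made after seeing the data, 31 members were separate and lower (23.6% of all genes were) and the median was -0.06, while 0 members passed in limma (0.302% of all genes were lower and 0.121% higher), with 6 lower and 2 higher at an unadjusted p below 0.05. When the arrays were normalized by quantiles a second time the median was nearer to 0, at -0.03. In that setting 16 members were separate and lower (12.4% of all genes were).

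**Figure D1:**
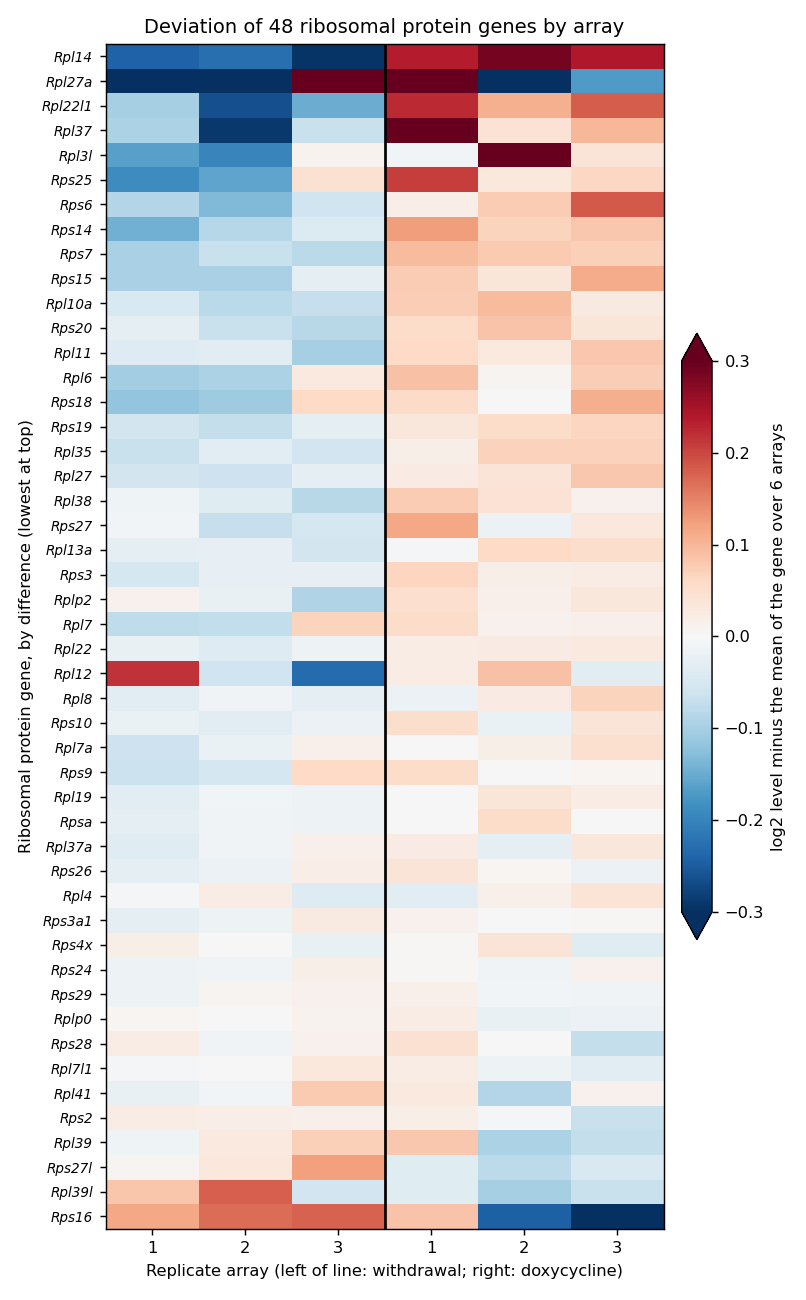
Heat map of the log2 level of each of the 48 genes minus its own mean over the 6 arrays (colour, blue lower and red higher, capped at 0.3 either way), with genes in rows ordered by difference and the 3 withdrawal and 3 doxycycline arrays in columns. Most genes are blue in the withdrawal columns and red in the doxycycline columns, withdrawal replicate 3 is the palest of its group with 27 genes below their mean, and Rpl27a is high in withdrawal replicate 3 and doxycycline replicate 1.

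Most members were read with little spread. Across members the median standard deviation within a group was 0.03 in either group, while the median standard error of a difference in limma was 0.06. By construction, limma draws the spread of each probe set toward that of all 45037. A fit in which that shared spread may depend on brightness (the trend and robust options of limma) called 11 members lower and 0 higher, where 4.02% of all genes were lower and 3.48% higher. Those 11 were Rpl10a, Rpl11, Rpl14, Rpl22l1, Rpl35, Rpl37, Rps7, Rps14, Rps15, Rps19 and Rps20. The calls below come from the fit without these options, and the adjusted p of the other fit is named where given.

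Rpl14, a protein on the outer face of the large subunit, was the 1 member that fell past the threshold. Its probe set read 8.33, 8.34 and 8.28 after withdrawal and 8.81, 8.86 and 8.81 under doxycycline. The groups did not overlap and were apart by 0.46, against standard deviations of 0.03 and 0.03 within them. The difference was -0.51 ± 0.06 (limma adjusted p = 0.00893), so the level was 1.42-fold higher under doxycycline. With any 1 doxycycline array left out the call was lost narrowly, at adjusted p = 0.0505, 0.0591 and 0.0545 for replicates 1, 2 and 3 in limma, and it was lost without both arrays that stood apart (limma adjusted p = 0.116). This probe set is dimmer than those of most members, with a mean of 8.57. A further 5 probe sets carry the symbol Rpl14 together with that of its pseudogene Rpl14-ps1 and so were assigned to no gene. They lay between 13.10 and 13.99 on average, and their differences ran from -0.21 to -0.16. None of these 5 passed in limma, although 4 had an unadjusted p below 0.05 and the groups were apart in all 5, with withdrawal lower.

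Rpl22, an RNA-binding protein whose loss is known from T-cell leukaemia, and its paralog Rpl22l1, whose mRNA Rpl22 protein is known to repress, were both lower after withdrawal, and neither passed on the brightest probe set. Rpl22l1 read 12.64, 12.48 and 12.59 after withdrawal and 12.96, 12.85 and 12.92 under doxycycline. Its groups were apart by 0.21, and the difference was -0.34 ± 0.07 (limma adjusted p = 0.0722). Rpl22 read 13.98, 13.97 and 13.99 after withdrawal and 14.03, 14.03 and 14.04 under doxycycline, also without overlap but with a difference of only -0.05 ± 0.06 (limma adjusted p = 0.774). The call of Rpl22l1 depended on the fit, since it passed among the probe sets above the median level (limma adjusted p = 0.0215) and with the trend and robust options (limma adjusted p = 0.00106).

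None of the other large-subunit genes passed. Rpl37, which lies near the tunnel through which the nascent chain leaves, read 10.86, 10.66 and 10.89 after withdrawal and 11.26, 10.99 and 11.05 under doxycycline, with a difference of -0.30 ± 0.10 (limma adjusted p = 0.216). Rpl10a, the protein of the mobile L1 stalk at the exit side, read 13.97, 13.93 and 13.94 after withdrawal and 14.09, 14.11 and 14.04 under doxycycline and differed by -0.13 ± 0.06 (limma adjusted p = 0.399). For Rpl11, which together with Rpl5 and the 5S rRNA can bind Mdm2, the arrays gave 13.72, 13.72 and 13.66 after withdrawal and 13.82, 13.79 and 13.84 under doxycycline and a difference of -0.11 ± 0.06 (limma adjusted p = 0.476). In all 3 genes the withdrawal arrays lay below the doxycycline arrays. Rpl35 (-0.10), Rpl27 (-0.10), Rpl38 (-0.09), Rpl13a (-0.07) and Rpl19 (-0.04) were likewise lower without overlap, with gaps between the groups from 0.01 to 0.06, and limma adjusted p from 0.517 to 0.842. Rpl6 (-0.11), Rpl7 (-0.06), Rpl8 (-0.05), Rpl12 (-0.05) and Rpl7a (-0.04) were lower on average with groups that overlapped. The differences of Rpl19, Rpl7, Rpl8, Rpl12 and Rpl7a were smaller than their standard errors.

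At the stalk, Rplp0, which anchors it and often serves as a reference gene, hardly differed. Its values were 14.49, 14.48 and 14.50 after withdrawal and 14.51, 14.46 and 14.47 under doxycycline, and the difference was 0.01 ± 0.06 (limma adjusted p = 0.961). Rplp2, an acidic protein of the stalk itself, gave 14.32, 14.28 and 14.22 after withdrawal and 14.36, 14.32 and 14.34 under doxycycline, a difference of -0.07 ± 0.06 (limma adjusted p = 0.712) with a gap of 0.003 between the groups. Rplp1 has no probe set of its own among those used here. Rpl4 (-0.02), Rpl37a (-0.02) and Rpl41 (0.03) were likewise within a standard error of 0, that error being 0.06 to 0.07.

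Rpl27a stood out by its spread, not by its groups. Its probe set read 8.97, 8.87 and 12.03 after withdrawal and 11.92, 9.03 and 9.96 under doxycycline. Withdrawal replicate 3 and doxycycline replicate 1, the arrays that stood apart, lay 1.96 or more (to 2 decimals) above each of the other 4, and the difference of -0.35 ± 0.98 (limma adjusted p = 0.923) turned positive without withdrawal replicate 1 or 2 or doxycycline replicate 1. The same arrays exceeded the other 4 by more than 1 in 60 of 45037 probe sets, among them no other of the 104 probe sets of members, and the reverse pattern occurred in 0.

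In the small subunit 17 of 22 genes had a negative difference and none passed. The groups were separate and lower in 8 genes (36.4%, where 12.2% of all genes were). They were separate and higher in 2 (9.09%, where 12.4% of all genes were). At an unadjusted p below 0.05 in limma, 3 were lower and 1 higher (13.6% and 4.55%), where 8.26% of all genes were lower and 8.003% higher. The clearest were Rps7 and Rps14. Rps7, which like Rpl11 can bind Mdm2, read 14.04, 14.07 and 14.06 after withdrawal and 14.24, 14.22 and 14.21 under doxycycline, a difference of -0.16 ± 0.06 (limma adjusted p = 0.270) with a gap of 0.14 and standard deviations of 0.01 in both groups. Rps14, the gene whose loss is linked to the anaemia of the 5q- syndrome, read 14.06, 14.12 and 14.17 after withdrawal and 14.33, 14.27 and 14.29 under doxycycline and differed by -0.18 ± 0.06 (limma adjusted p = 0.255). With the trend and robust options the limma adjusted p was 0.00254 for Rps7 and 0.00552 for Rps14.

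Rps15, needed for export of the small subunit from the nucleus, read 13.61, 13.61 and 13.68 after withdrawal and 13.78, 13.74 and 13.82 under doxycycline, a difference of -0.15 ± 0.06 (limma adjusted p = 0.351). Rps20 in the head of the subunit read 14.30, 14.26 and 14.25 after withdrawal and 14.38, 14.41 and 14.36 under doxycycline on its brightest probe set and differed by -0.12 ± 0.06 (limma adjusted p = 0.458). Rps19, the gene most often mutated in Diamond-Blackfan anaemia, read 13.91, 13.89 and 13.94 after withdrawal and 14.00, 14.02 and 14.03 under doxycycline and differed by -0.10 ± 0.06 (limma adjusted p = 0.510). The withdrawal arrays were the lower in each of these. Rps6, the target of the S6 kinases, read 10.14, 10.10 and 10.17 after withdrawal and 10.25, 10.31 and 10.42 under doxycycline, a difference of -0.19 ± 0.07 (limma adjusted p = 0.284) with groups apart by 0.08. Rps25, which some viral mRNAs need to start translation without a cap, read 9.967, 9.997 and 10.201 after withdrawal and 10.362, 10.187 and 10.217 under doxycycline, so that the groups just overlapped, with a difference of -0.20 ± 0.09 (limma adjusted p = 0.371). Rps18 (-0.11) and Rps27 (-0.09) overlapped as well. Rps3 (-0.07) and Rpsa (-0.04), also known as the precursor of the laminin receptor, were lower without overlap by gaps of 0.04 and 0.01.

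Other small-subunit genes were, like Rpsa, within a standard error of 0. Rps24 read 14.42, 14.42 and 14.45 after withdrawal and 14.44, 14.42 and 14.45 under doxycycline, and Rps29 read 14.63, 14.66 and 14.66 after withdrawal and 14.66, 14.64 and 14.64 under doxycycline. Their differences were -0.004 and 0.003, each with a standard error of 0.06. Rps10 (-0.05), Rps9 (-0.04), Rps4x (-0.005), Rps3a1 (-0.01), Rps26 (-0.02), Rps28 (0.02) and Rps2 (0.04) were also within theirs. Rps16 read 3.21, 3.26 and 3.27 after withdrawal and 3.18, 2.85 and 2.79 under doxycycline and had the largest positive difference of the members, 0.31 ± 0.11 (limma adjusted p = 0.246), but at a mean of 3.09, on the 9.48th percentile of all probe sets, its probe set was near the floor. The brighter sets that list Rps16 also list other symbols and were not used for it.

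**Figure D2:**
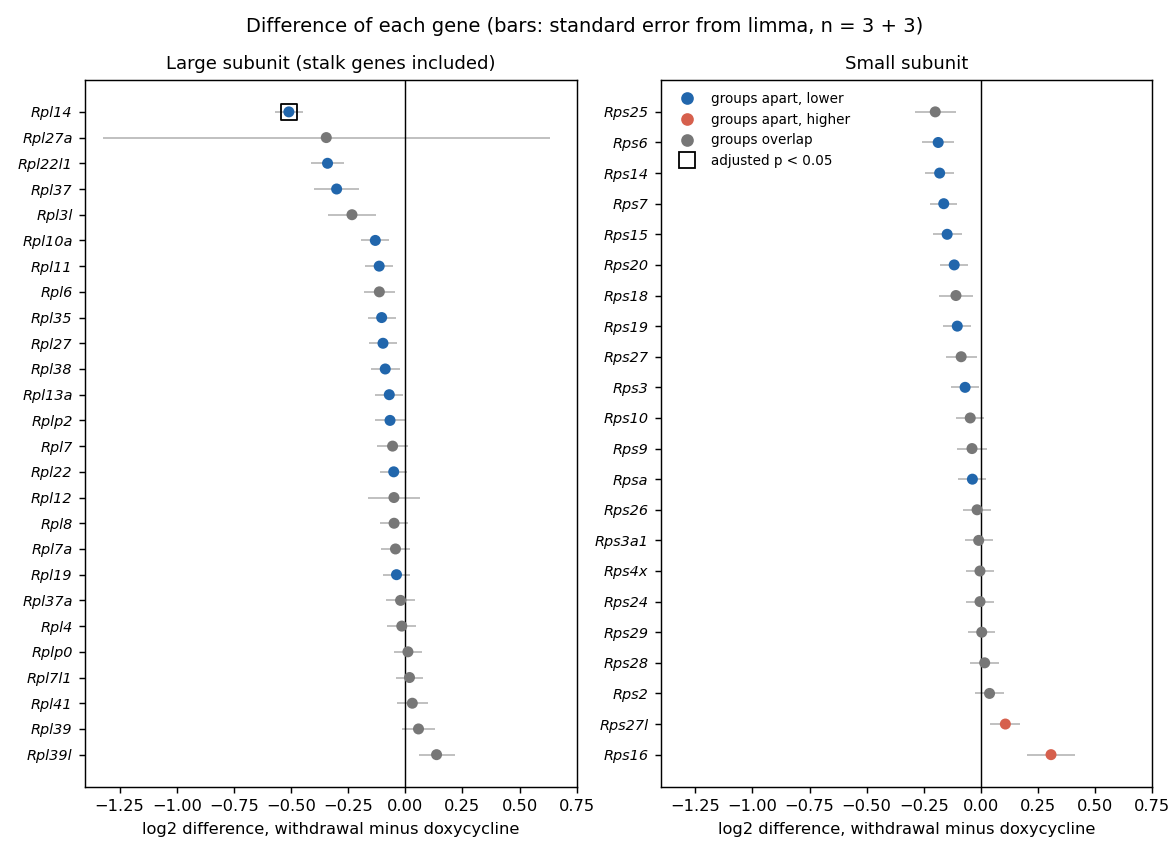
Difference of each gene, withdrawal minus doxycycline on the log2 scale (horizontal axis), for the large subunit (left) and the small subunit (right), with bars for the standard error that limma gives with n = 3 arrays in either group. Blue points mark the 20 genes whose withdrawal arrays all lay below the doxycycline arrays, red points the 2 with the reverse, grey points overlap, and the square marks Rpl14, the 1 gene with an adjusted p below 0.05.

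Of the 56 probe sets of members that were not the brightest of their gene, 4 fell in limma and none rose (1.18% and 0.79% of all probe sets), at 3 genes, Rps3, Rpl22 and Rps20. The groups were separate and lower in 22 of the 56 and separate and higher in 2, where 10.7% and 10.2% of all probe sets were. All 4 that fell were among the 23 sets with a mean below 12, of which 17 had a negative difference, with a median of -0.13, against -0.08 for the 33 brighter ones. Dim sets of Rps9 (0.10), Rpl37a (0.08), Rpsa (0.01), Rps6 (-0.001) and Rps10 (-0.02) were not further below 0 than the brightest set of the same gene. For Rps3, which lines the entry of the mRNA channel, a dim set read 8.30, 8.13 and 8.16 after withdrawal and 8.78, 8.68 and 8.71 under doxycycline and differed by -0.53 ± 0.07 (limma adjusted p = 0.0156), while the brightest read 13.65, 13.68 and 13.68 after withdrawal and 13.77, 13.72 and 13.73 under doxycycline and differed by -0.07, and a further set, at a mean of 4.45, by -0.13. A dim set of Rpl22 read 7.86, 7.81 and 7.68 after withdrawal and 8.40, 8.47 and 8.39 under doxycycline, a difference of -0.64 ± 0.07 (limma adjusted p = 0.00722), against -0.05 and -0.05 on its 2 bright sets. Rps20 had 2 dim sets that differed by -0.63 ± 0.10 (limma adjusted p = 0.0275) and -0.73 ± 0.13 (limma adjusted p = 0.0427), with values of 5.06, 4.86 and 5.05 after withdrawal and 5.44, 5.66 and 5.75 under doxycycline on the first. Its 2 bright sets differed by -0.10 and -0.12. The 4 dim sets were picked because they fell, so their direction follows from that choice. On the brightest set of each of these 3 genes the groups were also apart with withdrawal lower, by a smaller difference. The 2 dim sets of Rps20 had means of only 5.30 and 4.51. Which transcripts the dim sets read is not given in the sources used here.

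**Figure D3:**
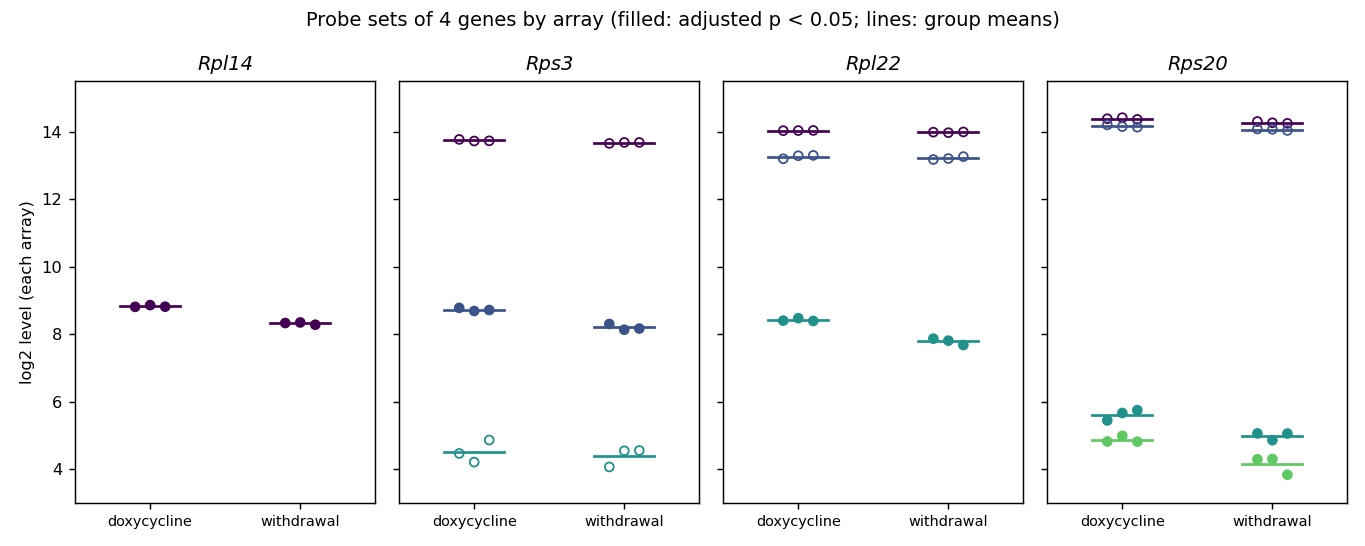
Log2 level on each array (vertical axis) of every probe set of Rpl14, Rps3, Rpl22 and Rps20 that carries that symbol alone, under doxycycline and after withdrawal, 3 arrays each. Lines are group means, colours separate the probe sets of a gene, and filled points mark sets with an adjusted p below 0.05, whose group means lie between 4.14 and 8.83, below the bright sets of Rps3, Rpl22 and Rps20.

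Among members at a level of 7 or more, the size of the difference went with the brightness of the probe set. The 36 members at 12 or more were split at their median level of 14.18. The 18 above it had a median difference of -0.03 (range -0.18 to 0.04), and the 18 below it one of -0.08 (range -0.34 to 0.11). The 8 members from 7 to 12 had a median of -0.19 (range -0.51 to 0.02). Other probe sets at the same levels had medians of 0.02, 0.004 and -0.005. From 7 up, the medians of the dimmer members thus lay further below 0, and those of other probe sets stayed within 0.02 of it. Among other probe sets the median absolute difference was 0.06, 0.08 and 0.10, against 0.04, 0.10 and 0.19 among the members. The arrays ended at 15.1 to 15.2, and 36 of the 48 members lay on or above the 99th percentile of all probe sets. How far the top of the range shortens the ribosomal differences was not tested. The 4 members below 7 (Rpl3l, Rpl39, Rpl39l and Rps16) did not continue this order, with a median of 0.10 (range -0.23 to 0.31) and a median absolute difference of 0.19. They gave no usable direction, with groups that overlapped in all but Rps16.

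**Figure D4:**
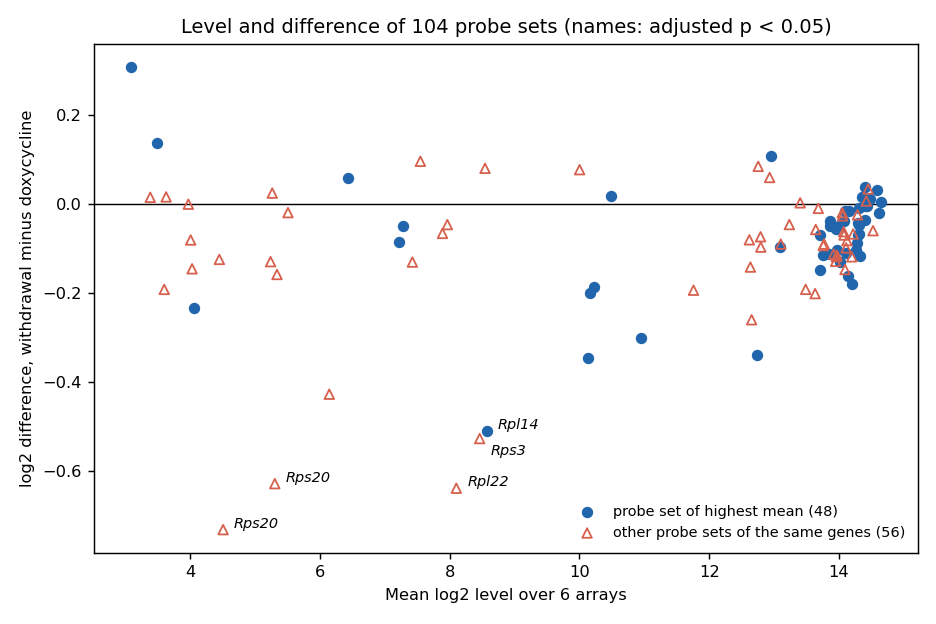
Mean log2 level over the 6 arrays (horizontal axis) against the log2 difference, withdrawal minus doxycycline (vertical axis), for the 104 probe sets of the 48 genes. Filled circles are the 48 brightest sets, open triangles the other 56, and names mark the 5 with an adjusted p below 0.05; most points at 13 or more lie just below 0, and the named sets are all below 9.

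Several members have a paralog on the array, and 4 pairs could be set side by side by the change of the paralog minus that of its partner within each array. Rps27l, a target of p53, read 12.96, 12.98 and 13.07 after withdrawal and 12.91, 12.87 and 12.90 under doxycycline, with every withdrawal array above every doxycycline array and a difference of 0.11 ± 0.07 (limma adjusted p = 0.534). Its other probe sets differed by 0.06 and 0.08. Rps27 had only 1 probe set, far dimmer at a mean of 7.22 against 12.95 for that of Rps27l. The part of brightness in their contrast was not tested. Rps27 read 7.214, 7.153 and 7.170 after withdrawal and 7.340, 7.205 and 7.254 under doxycycline, with overlap and a difference of -0.09 ± 0.07 (limma adjusted p = 0.637), so the pair differed in change by 0.19, and the within-array values of the groups did not overlap. For Rpl22l1 and Rpl22 that difference was -0.29, again without overlap. For both pairs the exact permutation test gave p = 0.10, two-sided, the smallest that 3 against 3 arrays allow, and p = 0.20 after Benjamini-Hochberg adjustment over the 4 pairs. Rpl7l1 read 10.48, 10.49 and 10.52 after withdrawal and 10.51, 10.47 and 10.45 under doxycycline (0.02), and Rpl7 read 13.88, 13.88 and 14.02 after withdrawal and 14.01, 13.97 and 13.97 under doxycycline (-0.06). The values of Rpl39l were 3.57, 3.67 and 3.44 after withdrawal and 3.45, 3.39 and 3.42 under doxycycline (0.14), and those of Rpl39 were 6.42, 6.46 and 6.51 after withdrawal and 6.51, 6.34 and 6.36 under doxycycline (0.06). In all 4 the groups overlapped. The change of Rpl7l1 exceeded that of Rpl7 by 0.07 (exact p = 0.30, adjusted 0.40) and that of Rpl39l exceeded that of Rpl39 by 0.08 (exact p = 0.50, adjusted 0.50). Rpl39l, best known from testis, and Rpl3l, of heart and skeletal muscle, were read near the floor, at means of 3.49 and 4.05. Rpl3l read 3.89, 3.85 and 4.06 after withdrawal and 4.04, 4.37 and 4.09 under doxycycline, with overlap and a difference of -0.23 ± 0.11 (limma adjusted p = 0.382).

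Of 19 listed genes of Diamond-Blackfan anaemia 11 were members. Of these 9 were lower on average, with a median of -0.09, and none passed in limma. In 5 the groups were separate and lower (45.5%, where 12.2% of all genes were). At an unadjusted p below 0.05 in limma, 1 was lower (9.09%, where 8.26% of all genes were). The only gene measured outside the naming pattern was Fau, which encodes Rps30 fused to a ubiquitin-like protein. It read 13.98, 14.02 and 14.07 after withdrawal and 14.13, 14.11 and 14.12 under doxycycline, lower in every withdrawal array, with a difference of -0.10 ± 0.06 (limma adjusted p = 0.558).

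Other mRNAs known for a terminal oligopyrimidine tract were mostly lower too. Of 18 such genes, elongation and initiation factors among them, 14 had a negative difference, with a median of -0.12. Without overlap 11 were lower and 1 higher (61.1% and 5.56%), where 12.2% and 12.4% of all genes were. Among the genes at 12 or more that are no members, 21.2% were separate and lower. None passed in limma. At an unadjusted p below 0.05, 5 were lower and 1 higher (27.8% and 5.56%), where 8.26% and 8.003% of all genes were. Eef1a1, which delivers aminoacyl-tRNA to the ribosome, read 14.36, 14.36 and 14.41 after withdrawal and 14.57, 14.50 and 14.50 under doxycycline, a difference of -0.15 ± 0.06 (limma adjusted p = 0.343). Eif4b, which helps the helicase of initiation, differed by -0.37 ± 0.08 (limma adjusted p = 0.0599), Nap1l1, a histone chaperone, by -0.29 and Gas5, a non-coding host of small nucleolar RNAs, by -0.23. Hnrnpa1, an RNA-binding protein of splicing, went the other way without overlap (0.19 ± 0.06 (limma adjusted p = 0.229)), and Tpt1 (0.00) and Pabpc1 (0.01) were near 0. Translation initiation factors as a list, which shares 4 genes with the former, had 17 of 31 negative differences, a median of -0.03 and no call in limma. Without overlap 10 were lower and 3 higher (32.3% and 9.68%), where 12.2% and 12.4% of all genes were. At an unadjusted p below 0.05, 4 were lower (12.9%, where 8.26% of all genes were).

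The mitochondrial ribosome, whose proteins serve translation inside mitochondria, was on balance on the other side of 0. Of 76 measured genes 53 had a positive difference, where 9827 of all 18193 genes did, and the median was 0.05. Without overlap 13 were higher and 7 lower (17.1% and 9.21%), where 12.4% and 12.2% of all genes were, so these shares are not far from the background. In limma 1 was lower and 0 higher, where 1.57% and 1.2% of all genes were. Mrpl52 alone fell, from 10.42 ± 0.07 (SD, n = 3) to 9.86 ± 0.08 (SD, n = 3), a difference of -0.55 ± 0.07 (limma adjusted p = 0.0127), and Mrpl19 had the smallest adjusted p of those higher (0.34 ± 0.07 (limma adjusted p = 0.0584)). The difference between the cytosolic and the mitochondrial genes was not tested.

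Upstream, the components of mTORC1 and of the control of oligopyrimidine mRNAs included 1 gene of 16 that passed, where 1.57% of all genes were lower. Deptor, an inhibitor within the mTOR complexes, read 7.73, 7.73 and 7.67 after withdrawal and 8.12, 8.10 and 8.11 under doxycycline and fell by 0.40 ± 0.06 (limma adjusted p = 0.0232). Pdcd4, an inhibitor of initiation, differed by -0.37 and Tsc2, which restrains mTORC1, by 0.31, and neither passed. The 11 chaperones and importers of single ribosomal proteins held no call in limma and had a median of -0.08. At an unadjusted p below 0.05, 3 were lower (27.3%, where 8.26% of all genes were). Without overlap 6 were lower and 1 higher (54.5% and 9.09%, where 12.2% and 12.4% of all genes were). Among those lower were Ipo7 (-0.29) and Grwd1 (-0.19), the chaperone of Rpl3. Of 18 genes of the p53 pathway, which free ribosomal proteins can activate by holding Mdm2, none passed in limma. At an unadjusted p below 0.05, 1 was lower and 3 higher (5.56% and 16.7%), where 8.26% and 8.003% of all genes were. The largest differences were those of Sesn1 (-0.39 ± 0.08 (limma adjusted p = 0.0616)) and Gtse1 (0.26).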

How the data were processed

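Total RNA was amplified with the NuGEN Ovation V2 SPIA kit, biotin-labelled and hybridised to Affymetrix mouse arrays, per the labels' protocols. The deposited values are log2 levels made by the authors with RMA, per the submitters' processing notes; the version is not given in the sources used here. Of 45101 probe sets 64 controls were left out. Symbols came from GEO's platform annotation: 34945 probe sets had 1 symbol, 932 several and 9160 none. A further 28 ribosomal protein names, such as Rpl3, Rpl5 and Rplp1, occurred only in probe sets with several symbols and were not used.

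Each difference was tested, two-sided, by the moderated test of limma 3.58.1 (lmFit, eBayes) under R 4.3.3 over all 45037 remaining probe sets with Benjamini-Hochberg adjustment and a threshold of 0.05, after a check on simulated data. Figures used matplotlib 3.10.9. The number of arrays limits the precision. The members and lists were chosen with earlier results of these data known. Values on every array were given for members past the threshold, the 8 members with the largest differences, the stalk genes, paralog pairs and Rps14, Rps19, Rpl11 and Rpl22; of related lists, for genes past the threshold and up to 2 others, and the remaining genes were named after their values were seen. Same-numbered arrays of the 2 groups were checked for shared deviations, and the numbers were not taken to pair them. The alternatives tried were 1 array left out at a time, a block for the replicate number, dim probe sets left out, centring or quantile normalization of the arrays, the trend and robust options, and other choices of probe set.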

Additional observations from a re-analysis of the deposited data

How the results depend on the processing

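In limma the number of members higher was 0 under every alternative run. The number lower was 0 to 1 with each array left out in turn, being 0 without any 1 of the doxycycline arrays. It was also 0 without withdrawal replicate 3 and doxycycline replicate 1, an alternative chosen after seeing the data. There 31 members were separate and lower (23.6% of all genes were). The number lower in limma was 2 of 45 members among probe sets above the median level (5.21% of all genes there were lower) and 11 with the trend and robust options (4.02%). It was 4 with the mean of the probe sets of a gene (2.06%) and 3 of 25 members with unsuffixed probe sets (1.25%), where 8 were separate and lower (11.3% of genes). With each array left out in turn, 20 to 30 members were separate and lower (15.1% to 17.6% of all genes) and the median difference ran from -0.06 to -0.04. That median was -0.030 with repeated quantile normalization, -0.077 with the mean of the probe sets of a gene and -0.098 with unsuffixed probe sets, and negative in every setting run. Rpl27a reversed, to 0.15 and 0.20 without withdrawal replicates 1 and 2 and to 0.46 without doxycycline replicate 1, and its values with 1 array left out ran from -1.38 to 0.46. The causes were not tested, except that fewer arrays or genes entered some fits by construction.

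With the replicate block the number of members lower in limma was 0 (4 lower and 1 higher at an unadjusted p below 0.05; adjusted p of Rpl14 0.0597), and over all genes 107 were lower and 63 higher, against 286 and 218 without it. Deviations of same-numbered arrays correlated at -0.30, 0.46 and -0.03 for numbers 1, 2 and 3. Those of withdrawal replicate 3 correlated at 0.55 with doxycycline replicate 1 and at -0.60 with doxycycline replicate 2. Deviations from a mean of 3 arrays depend on each other, so these values cannot show whether same-numbered arrays were handled together.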
